A study of Mus musculus with 32 samples.

Results

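The 10 genes described here were the leucine-rich proteoglycans Dcn (decorin), Bgn (biglycan), Lum (lumican), Fmod (fibromodulin), Omd (osteomodulin), Prelp and Ogn (osteoglycin), together with Pcolce, Lox and Serpinh1 of collagen processing. They were taken by symbol from the 22337 genes of the deposited tables, a choice made with earlier results of these data known. RNA-seq was performed on the hippocampus, the meninges and sorted meningeal lymphatic endothelial cells (mLECs) of male mice aged 6 months, in 3 arms and 32 libraries. WT mice were littermates without the transgenes. 5xFAD mice carried the 5xFAD transgenes under Thy1 regulatory sequence, which is active mainly in neurons. 5xFAD+L mice were 5xFAD mice whose shaved scalp was lit with near-infrared light in repeated sessions under isoflurane, and the study's control procedure kept the anaesthesia and shaving under indoor light. Hippocampus had 4 mice in each arm, whereas meninges and mLECs each had 4 WT, 3 5xFAD and 3 5xFAD+L mice. Each tissue library came from 1 mouse. The mLECs were sorted as CD45-CD31+PDPN+ cells from the stripped meninges.

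Small leucine-rich proteoglycans are secreted proteins built around leucine-rich repeats. They bind fibrillar collagen and shape the width and spacing of its fibrils, and decorin and biglycan also bind growth factors such as TGF-beta. Inside the cell, new procollagen folds with the help of the chaperone HSP47, encoded by Serpinh1. Outside it, the enhancer protein Pcolce speeds the removal of the C-propeptide by BMP1, and lysyl oxidase, encoded by Lox, prepares collagen for cross-linking. In the brain these proteins are best known from the fibroblasts of the meninges and of larger vessels.

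In the mouse genome (GRCm38, GENCODE annotation), 6 of the 10 genes lie beside another gene of the proteoglycan family. On chromosome 1, Prelp (133910304 to 133921414, minus strand) and Fmod (134037254 to 134048277, plus strand) were 115839 bases apart. On chromosome 10, Dcn (97479609 to 97518143) and Lum (97565128 to 97572703) lay 46984 bases apart on the plus strand. On chromosome 13, Omd (49582462 to 49592822) and Ogn (49608046 to 49624501) lay 15223 bases apart on the plus strand, inside the span of Cenpp on the other strand but without shared exons. Bgn lay on chromosome X (73483602 to 73495933, plus strand), Pcolce on chromosome 5 (137605103 to 137613784, minus strand) and Serpinh1 on chromosome 7 (99345376 to 99353239, minus strand). In 5xFAD hippocampus Fmod rose, while its neighbour Prelp had a log2 difference of 0.12 that did not pass the test. Exons of Pcolce overlap those of Fbxo24 on the same strand, and exons of Prelp, Pcolce and Lox overlap antisense genes. The libraries do not mark strand, so reads of Pcolce, Prelp and Lox are uncertain to that extent.

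Promoter sequence was matched for 7 of the 10 genes (RefSeq, GRCm38.p6, the 250 bases before the gene start). Fmod and Bgn are shown because they were the members higher in 5xFAD hippocampus, and Ogn is shown as a member whose level passed the test between no 2 arms in hippocampus. Capitals mark any match, on either strand, to CAGAC (the core letters that SMAD proteins bind), TATAAA (the TATA box) or GGAATG (the TEAD motif). TGANTCA (AP-1) was searched too.
Fmod promoter, chr1:134037004-134037253, plus strand: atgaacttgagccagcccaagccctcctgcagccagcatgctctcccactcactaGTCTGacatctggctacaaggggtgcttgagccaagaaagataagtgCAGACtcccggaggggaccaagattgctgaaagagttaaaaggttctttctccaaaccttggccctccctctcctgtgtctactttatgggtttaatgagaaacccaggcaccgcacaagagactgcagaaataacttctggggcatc
Bgn promoter, chrX:73483351-73483600, plus strand: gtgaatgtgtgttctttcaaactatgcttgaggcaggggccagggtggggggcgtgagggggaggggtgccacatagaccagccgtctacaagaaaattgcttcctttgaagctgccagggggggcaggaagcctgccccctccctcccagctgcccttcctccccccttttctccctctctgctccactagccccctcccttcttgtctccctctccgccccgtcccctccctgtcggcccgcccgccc
Ogn promoter, chr13:49607765-49608014, plus strand: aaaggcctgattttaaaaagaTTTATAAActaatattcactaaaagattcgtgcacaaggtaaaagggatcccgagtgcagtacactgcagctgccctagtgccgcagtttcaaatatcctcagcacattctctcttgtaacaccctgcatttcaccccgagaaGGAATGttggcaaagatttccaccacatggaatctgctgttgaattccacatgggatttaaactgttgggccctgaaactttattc
The Fmod window held CAGAC 2 times, once on each strand, 195 and 148 bases before the start. The Ogn window held TATAAA on both strands at overlapping positions and GGAATG once. The GC-rich Bgn window (64.4% GC against 51.2% for Fmod and 42.0% for Ogn) matched none of the 4 motifs. Over 32851 promoters of the same table, 42.2% held CAGAC, 12.4% TATAAA, 12.6% GGAATG and 6.75% TGANTCA, so the matches are common ones and describe the letters of these windows alone.

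Total counts were 13952825 to 23856476 per hippocampus library, 6601143 to 14708202 per meninges library and 14231415 to 24207326 per mLEC library. Genes above 0 numbered 16371 to 18264 in hippocampus and 5998 to 9020 in mLECs, so the sorted-cell libraries held far fewer genes. Over all tested genes the spread between replicate mice (biological coefficient of variation) was 0.198 in hippocampus, 0.35 in meninges and 1.89 in mLECs. The members did not all follow this order. In 5xFAD against WT the SE of Fmod was 0.38 in hippocampus and 0.25 in meninges on the log2 scale. Bgn, Pcolce, Dcn, Ogn and Prelp also had the smaller SE in meninges, whereas Lum and Serpinh1 had it in hippocampus. Reads assigned to Thy1, whose regulatory sequence drives the transgenes, stood at 170 to 189 FPKM in WT hippocampus and at 407 to 622 FPKM in both 5xFAD arms, above WT in each of the 8 transgenic libraries. Choroid plexus transcripts were uneven in hippocampus, with a 9-gene list at 2840 summed FPKM in WT replicate 2 and at 3235 and 2951 in 5xFAD replicates 1 and 2, and between 38.0 and 704 in the other 9 libraries. In mLECs the endothelial gene Pecam1 was at 189 to 398 FPKM, but the lymphatic chemokine Ccl21a was at 3.54 in WT replicate 2 and at 0 in WT replicate 4 against 998 to 9356 elsewhere, so these 2 libraries go against the label for this marker. Prox1, the lymphatic master regulator, did not exceed 5.71 FPKM in any mLEC library. Pdpn, the gene of the sort marker PDPN, ranged from 0 to 26.7 FPKM in WT mLECs, 0 to 23.5 in 5xFAD and 0.04 to 77.6 in 5xFAD+L.

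In WT mice each of the 8 members that passed the filter on low values in hippocampus was higher in meninges, by 2.87-fold for Prelp to 109-fold for Fmod. The edgeR quasi-likelihood fit of all 22 tissue libraries called each of these 8 higher at an adjusted p below 0.05 and at least 2-fold, where 30.1% of the 15132 genes tested were called higher and 51.4% in either direction. Lox and Omd entered this fit through their meningeal level, so they had to differ, and their fitted log2 differences of 7.72 and 5.47 are descriptions. Fmod, which guides early fibril assembly, was higher by 6.77 ± 0.41 on the log2 scale (SE, 109-fold, adjusted p = 1.98e-11). Bgn followed at 6.42 ± 0.39 (85.6-fold, adjusted p = 2.48e-11). Dcn, the member with the highest hippocampal level, was 21.0-fold higher in meninges (log2 4.39 ± 0.61, adjusted p = 1.88e-06). Prelp, a proteoglycan that links matrix to basement membranes, differed least of the 8 (log2 1.52 ± 0.29, adjusted p = 1e-04).

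Within WT meninges, FPKM, which is scaled by gene length, ranked Dcn at the top (557 ± 133, SD, n = 4), followed by Pcolce (321 ± 68.3), Bgn (251 ± 33.1) and Serpinh1 (193 ± 99.7). Ogn (129 ± 28.9), Fmod (122 ± 19.9) and Lum (97.4 ± 34.8) came next with overlapping ranges, and Prelp (42.3 ± 6.42), Omd (22.9 ± 7.76) and Lox (11.3 ± 4.72) were lowest. In WT hippocampus the order began with Dcn (25.3 ± 8.19 FPKM) and Prelp (14.0 ± 2.35), whose ranges overlapped, and ended with Omd (0.373 ± 0.0499) and Lox (0.0475 ± 0.0222), whose ranges did not. In WT mLECs Serpinh1 (345 ± 288), Bgn (200 ± 122) and Dcn (179 ± 74.0) had overlapping ranges, whereas Lum and Ogn were listed at 0 in each of the 4 WT libraries. The mLEC table was normalised on its own, so its levels are set beside the others as a description.

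**Figure D1:**
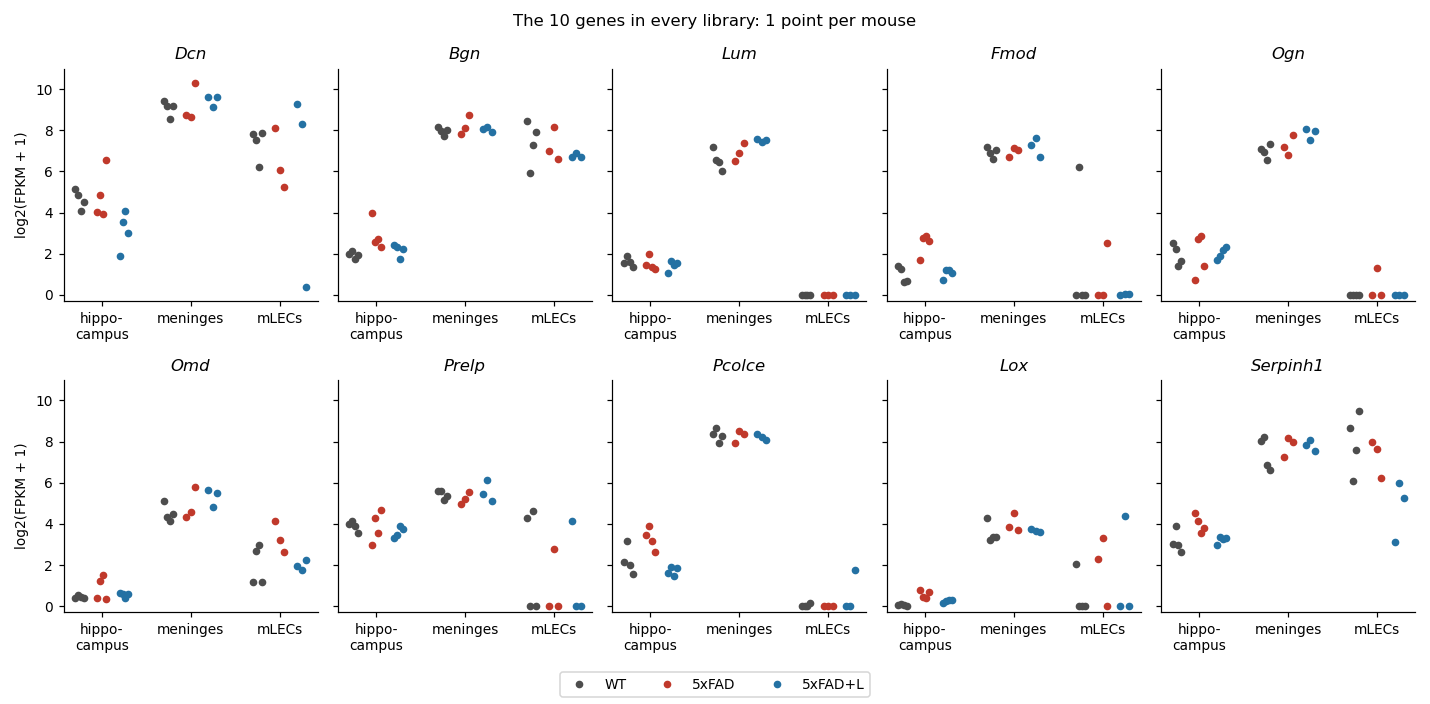
Level of each of the 10 genes in all 32 libraries, as log2(FPKM + 1), by tissue and arm, with 1 point per mouse. The genes sit high in meninges, low in hippocampus and, for Lum, Ogn, Fmod and Pcolce, at or near 0 in nearly all mLEC libraries.

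The other genes of the pathway are counted here as a description, since most of the other proteoglycans and fibrillar collagens entered this fit through their meningeal level. Of 10 other small leucine-rich proteoglycans, all 8 that could be tested were called higher in WT meninges, led by Chad (log2 8.97), Podnl1 (5.23) and Aspn (4.99). Fibrillar collagens, the substrates, were higher for 8 of 9 tested, with Col3a1 at 8.86, Col1a2 at 8.72 and Col1a1 at 7.90. Of 25 tested collagen processing enzymes and chaperones other than the members, 18 were higher and none lower, among them the lysyl oxidase relatives Loxl2 (4.89) and Loxl1 (4.65) and the N-propeptidase Adamts2 (4.43). Enzymes that assemble and modify glycosaminoglycan chains went both ways, with 2 of 12 higher and 5 lower.

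In the hippocampus of untreated 5xFAD mice, Fmod and Bgn were higher than in WT. The comparison asks what the transgenes alone do to these genes. They were 2 of the 8 members with enough signal to test, beside 4.23% of all 12981 genes tested that were called higher and 4.28% called in either direction. Fmod was at 1.68, 1.39, 0.53 and 0.61 FPKM in the 4 WT mice and at 2.24, 5.83, 6.19 and 5.12 in the 4 5xFAD mice, so the groups did not overlap. It rose 4.58-fold (log2 2.20 ± 0.38, SE, 95% interval 1.37 to 3.02, adjusted p = 0.00264). Bgn was at 2.98, 3.41, 2.37 and 2.78 FPKM in WT and at 14.9, 4.99, 5.67 and 4.03 in 5xFAD, again without overlap but with 1 mouse far above the rest. It rose 2.72-fold (log2 1.44 ± 0.36, adjusted p = 0.0241). Non-overlapping groups with the higher level in 5xFAD were found for 8.75% of all genes.

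Pcolce and Serpinh1, of collagen processing, had higher means in 5xFAD hippocampus without passing the test. Pcolce was at 3.45, 8.08, 3.05 and 1.93 FPKM in WT and at 10.1, 14.1, 8.07 and 5.25 in 5xFAD, where WT replicate 2 lay within the 5xFAD range (log2 1.26 ± 0.39, adjusted p = 0.0627). Serpinh1 was at 7.20, 13.7, 6.90 and 5.29 in WT and at 22.1, 16.8, 10.7 and 12.8 in 5xFAD (log2 0.93 ± 0.28, adjusted p = 0.0563). WT replicate 2, among the libraries rich in choroid plexus transcripts, was the WT mouse inside the 5xFAD range for each of these genes. Lox fell under the filter on low values in hippocampus. It had 2 to 7 counts in WT, 21 to 66 in 5xFAD and 8 to 19 in 5xFAD+L, and neither 5xFAD arm overlapped WT. In the fit without a filter (20292 genes) the log2 difference between 5xFAD and WT was 3.27 ± 0.47 (adjusted p = 0.00034).

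The remaining proteoglycans gave no call between 5xFAD and WT hippocampus. Dcn varied most, at 35.0, 28.4, 16.2 and 21.7 FPKM in WT and at 15.2, 27.9, 14.5 and 93.3 in 5xFAD. Its log2 difference of 0.57 ± 0.56 (95% interval -0.64 to 1.78, adjusted p = 0.582) turned to -0.37 without 5xFAD replicate 4, the mouse at 93.3. Prelp (log2 0.12 ± 0.29), Ogn (0.21 ± 0.54) and Lum (-0.08 ± 0.28) had intervals that span 0, the widest being that of Ogn from -0.95 to 1.37. Omd was under the filter, at 0.33 to 0.44 FPKM in WT and at 0.26 to 1.89 in 5xFAD. Over the 8 members tested the median log2 difference was 0.75, against 0.01 over all genes.

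Of the 2 calls, that of Fmod held without each of the 8 mice in turn (log2 2.00 to 2.52). Bgn rested on single mice: without 5xFAD replicate 1 its log2 difference was 0.81, under the 2-fold limit, and it lost the adjusted p threshold without WT replicate 1, 3 or 4 (adjusted p 0.0605 to 0.0769). Without WT replicate 2 or without 5xFAD replicate 4, 4 members were called (Fmod, Bgn, Pcolce and Serpinh1).

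In the hippocampus of 5xFAD+L mice, Fmod and Pcolce were lower than in untreated 5xFAD mice. The comparison asks what light did in mice of the same genotype. Each of these genes was among the 0.154% of 12981 genes called lower (0.27% in either direction), and no member was called higher. Fmod stood at 0.68, 1.31, 1.32 and 1.10 FPKM in the light-treated mice, below the lowest untreated 5xFAD mouse at 2.24. It fell 4.37-fold (log2 -2.13 ± 0.39, SE, 95% interval -2.96 to -1.30, adjusted p = 0.0482). Pcolce stood at 2.11, 2.72, 1.76 and 2.57 FPKM, below the lowest untreated 5xFAD mouse at 5.25. It fell 4.16-fold (log2 -2.06 ± 0.40, 95% interval -2.93 to -1.19, adjusted p = 0.0482). For the chaperone Serpinh1 the light-treated mice at 6.82, 9.42, 8.48 and 8.83 FPKM also lay below each untreated one, but the difference did not pass the test (log2 -0.95 ± 0.28, adjusted p = 0.123). These 3 members had non-overlapping groups with the lower level under light, as did 3.98% of all genes.

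Dcn was at 2.77, 10.8, 16 and 7.16 FPKM under light, a mean of 9.19 against 37.7 in untreated 5xFAD mice. The highest light-treated mouse exceeded the lowest 2 untreated ones, and the log2 difference of -2.01 ± 0.59 did not pass (adjusted p = 0.121). Bgn, at 4.31, 4.01, 2.41 and 3.66 FPKM under light, overlapped the untreated range by its upper end (log2 -1.07 ± 0.36, adjusted p = 0.15). Prelp (-0.40 ± 0.29), Lum (-0.17 ± 0.28) and Ogn (-0.17 ± 0.54) were nearer to 0. All 8 tested members had a log2 difference below 0, where 52.5% of all genes did. Their median was -1.01 against -0.02 over all genes, and 5 of 8 were lower at an unadjusted p below 0.05, where 9.81% of all genes were. Lox, under the filter, went from 0.71, 0.37, 0.31 and 0.61 FPKM to 0.10, 0.18, 0.22 and 0.24 under light without overlap (log2 -1.44, adjusted p = 0.13 in the fit without a filter).

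The calls under light lay close to the threshold. Fmod lost its call without 5xFAD replicate 3 or 4 or 5xFAD+L replicate 1, 2 or 4, and Pcolce without 5xFAD replicate 1, 3 or 4 or any 1 of the 4 light-treated mice, with adjusted p between 0.0585 and 0.181 while the log2 differences lay between -2.26 and -1.95 in these fits. With the 2 compared groups fitted alone neither was called (adjusted p = 0.12 for Fmod and 0.0983 for Pcolce).

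**Figure D2:**
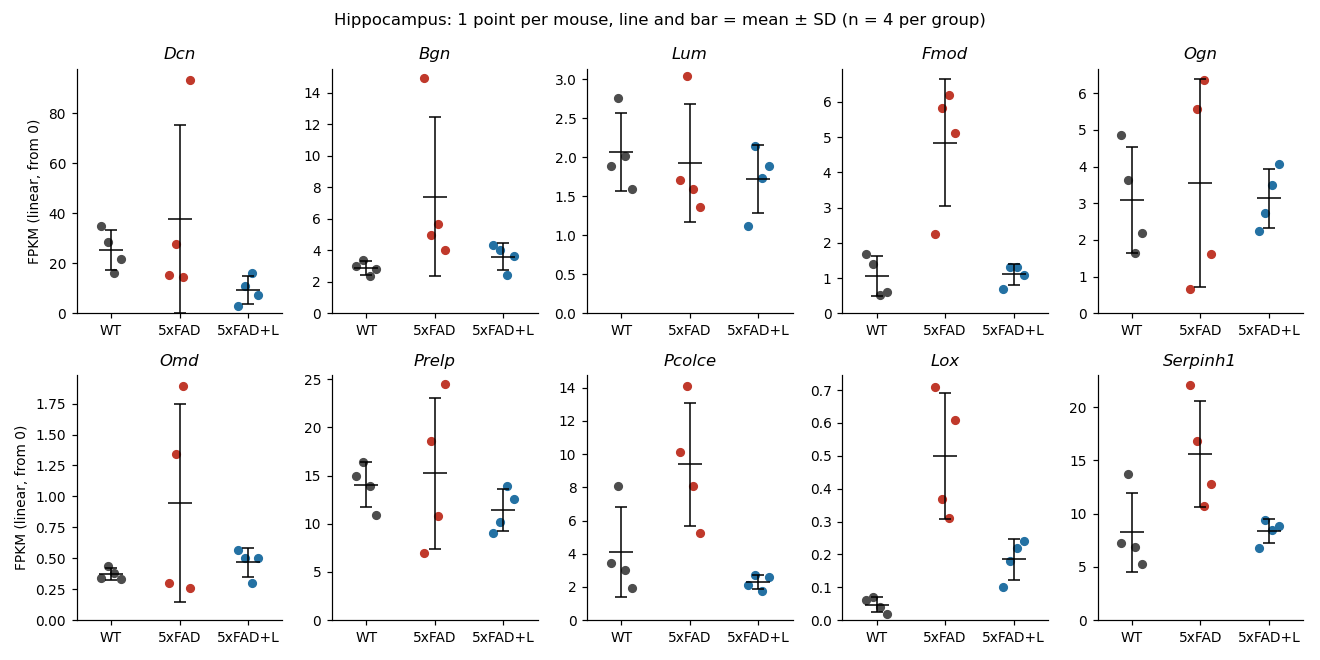
FPKM of the 10 genes in the 12 hippocampus libraries, on a linear axis from 0 for each gene, with points for mice and a line and bar for the mean ± SD of 4 mice. Fmod is highest in all 4 untreated 5xFAD mice, at 2.24 to 6.19 FPKM, while the 93.3 of Dcn and the 14.9 of Bgn are single mice.

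Light-treated 5xFAD mice were then set beside WT, a comparison that shares its groups with the other hippocampal ones. By edgeR 0 of 8 members were called, where 2.36% of all genes were, and DESeq2 and limma also called 0. At an unadjusted p below 0.05 there was 1 member, Dcn, with the lower level under light, where 6.28% of all genes were (log2 -1.45 ± 0.58, 95% interval -2.70 to -0.19, adjusted p = 0.227). Its groups met without overlap, at 16 FPKM for the highest light-treated mouse and 16.2 for the lowest WT mouse, as did the groups of 7.52% of all genes with the lower level under light. With these groups fitted alone, Dcn passed (adjusted p = 0.0475). Fmod differed from WT by 0.07 on the log2 scale, with an interval from -0.77 to 0.91, and Bgn by 0.37, with an interval from -0.40 to 1.15. Serpinh1 was at -0.02 (interval -0.62 to 0.59) and Pcolce at -0.80 (interval -1.66 to 0.07). Lox remained above WT in each light-treated mouse (log2 1.83, adjusted p = 0.057 without a filter).

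Under light, the tested markers of leptomeningeal fibroblasts and of choroid plexus all had log2 differences below 0 in hippocampus, as the tested members did. A list of 16 leptomeningeal fibroblast markers, which holds no member but shares 3 collagens with the list of fibrillar collagens, summed to 49.9 to 128 FPKM in WT, 90.5 to 164 in untreated 5xFAD and 53.2 to 64.6 in light-treated mice, with none of the 16 at 0 throughout a group. Under light 12 of 12 tested markers had a log2 difference below 0, with a median of -1.49 and 1 call (Crabp2, log2 -2.53, adjusted p = 0.0402), where DESeq2 called 8. In 5xFAD against WT 11 of 12 were above 0, with a median of 1.24 and 3 calls (Crabp2, Col1a1 and Col1a2). A mean of at least 1 FPKM was reached by 12 of the 16 markers in the untreated 5xFAD arm, against 8 in each other arm. Col1a1 and Col1a2 entered the fit through that arm. The filter favoured markers high there, so the counts and medians of the fibroblast list in both comparisons are descriptions. The 9 choroid plexus markers summed to 38.0 to 2840 FPKM in WT, 210 to 3235 in untreated 5xFAD and 65.2 to 248 in light-treated mice. Under light all 8 tested were below 0 (median log2 -2.50) and 0 were called by edgeR, with 5 lower at an unadjusted p below 0.05, while DESeq2 called 3 (Ttr, Folr1 and Kcnj13) and limma 0. In 5xFAD against WT 7 of 8 were above 0 (median 0.67), with 0 called by edgeR and 0 at that p. Mural cell markers had a median of -0.39 under light (0 of 7 called by edgeR, 3 lower at that p). In 5xFAD against WT their median was 0.27, with 1 call (Tagln). The part of these cells in the results was not tested. Fewer cells of a type and less RNA per cell cannot be told apart in bulk tissue.

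Without the 3 libraries that held the most Ttr, the defining choroid plexus transcript, 2 untreated 5xFAD mice remained beside the 4 light-treated ones. In that fit Fmod and Pcolce were called lower under light (log2 -2.35, adjusted p = 0.0296, and log2 -1.54, adjusted p = 0.0423). Fmod was called higher in 5xFAD than in WT (log2 2.55, adjusted p = 0.00912), while Bgn was not (log2 0.87, adjusted p = 0.0934). Macrophage and microglial markers, with 4 of 4 tested called higher in 5xFAD, had a median log2 difference of -0.26 under light (0 of 4 called by edgeR, DESeq2 or limma, 1 at an unadjusted p below 0.05).

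**Figure D3:**
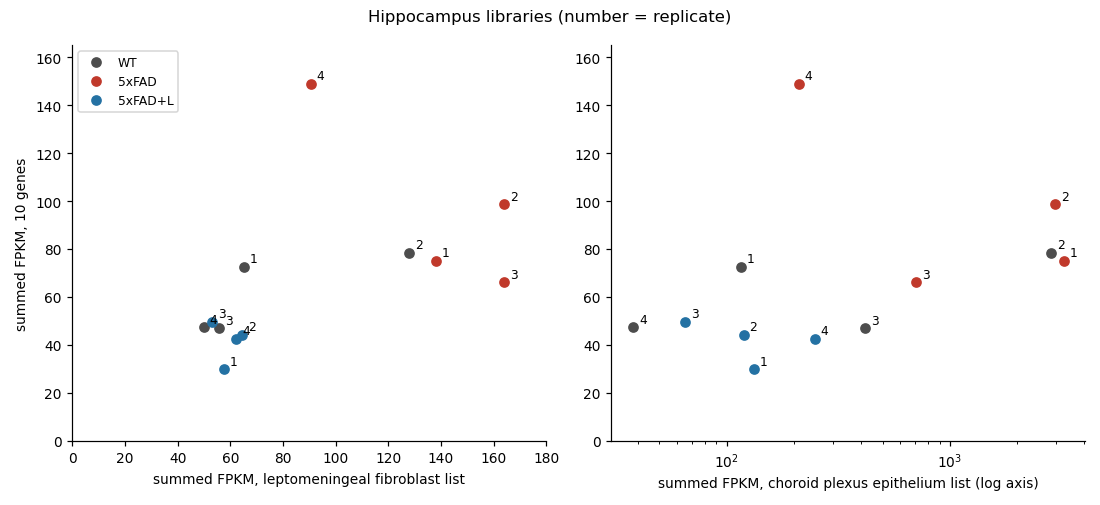
Summed FPKM of the 10 genes in each of the 12 hippocampus libraries (vertical axis) against the summed FPKM of the leptomeningeal fibroblast list (left) and of the choroid plexus list (right, log axis), numbered by replicate. All 4 light-treated mice lie below 70 on the fibroblast axis and below 50 for the 10 genes, and 5xFAD replicate 4 has the highest sum of the 10 genes (149) at a middling fibroblast sum (90.5).

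Other genes of the pathway were counted by list in hippocampus, and no test compared the lists with the members. In 5xFAD against WT, 2 of 23 tested collagen processing genes were called higher, the prolyl hydroxylases P4ha3 (log2 1.69, adjusted p = 0.015) and P3h2 (1.15, adjusted p = 0.0317). Among 4 tested fibrillar collagens, Col1a1 (1.01) and Col1a2 (1.83), the chains of type I collagen, were called higher. Both were below 1 FPKM in every WT and light-treated mouse and entered the fit through untreated 5xFAD. Their differences here and under light are therefore descriptions. Under light edgeR called 0 of 23 collagen processing genes (5 lower and 1 higher at an unadjusted p below 0.05), 0 of 12 glycosaminoglycan enzymes (0 at that p) and 0 of 4 fibrillar collagens (2 lower at that p, Col1a2 at log2 -1.56 and Col1a1 at -1.21, the 2 that DESeq2 called). DESeq2 and limma called none of the processing genes or glycosaminoglycan enzymes. The other small leucine-rich proteoglycans were too low to test for 8 of 10.

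In the meninges, where the members are abundant, neither genotype nor light gave a call. Changes were simulated in 200 genes drawn from all those tested, at this spread and number of mice. None of the 2-fold changes was called, whereas 153 of 200 4-fold changes were. The lack of calls alone therefore does not show that 2-fold changes were absent. By edgeR 0 of 10 members passed in each of the 3 comparisons, beside 0.014% of 14318 genes under light, 0% in 5xFAD against WT and 0.014% in light-treated mice against WT. DESeq2 and limma also called 0 members. At an unadjusted p below 0.05 there were 0, 0 and 3 members in turn. Between light-treated and untreated 5xFAD mice the log2 differences ran from -0.44 for Lox to 0.59 for Ogn, and between 5xFAD and WT from -0.17 for Prelp to 0.49 for Lox. Fmod, which moved most among tested members in hippocampus, had a meningeal log2 difference of 0.26 under light (95% interval -0.32 to 0.84) and of 0.04 in 5xFAD against WT (interval -0.50 to 0.57). Pcolce had -0.06 (interval -0.63 to 0.51) and -0.04 (interval -0.58 to 0.50) in the same comparisons. Under light the intervals of Fmod and Pcolce stayed within 2-fold, whereas those of Lum, Ogn, Omd and Lox reached past it.

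The 3 members with an unadjusted p below 0.05 were Lum, Ogn and Omd, each higher in light-treated 5xFAD than in WT meninges, where 8.13% of all genes were. Lum, a keratan sulfate proteoglycan, was at 146, 94.0, 86.2 and 63.6 FPKM in WT, at 91.5, 117 and 166 in 5xFAD and at 187, 170 and 182 in 5xFAD+L. Each light-treated mouse was above each mouse of the other arms, by a log2 difference from WT of 0.90 ± 0.29 (95% interval 0.28 to 1.52, adjusted p = 0.171). Ogn was at 137, 121, 94.4 and 163 in WT and at 271, 181 and 252 in 5xFAD+L (log2 0.88 ± 0.30, adjusted p = 0.185), without overlap, while 5xFAD mice at 144, 112 and 218 overlapped both arms. Non-overlapping groups of this direction were found for 6.99% of all genes against WT, and for 10.1% against untreated 5xFAD, where Lum was the member. Omd, the bone-associated family member, reached 49.0, 27.1 and 44.0 under light against 16.7 to 34.1 in WT (log2 0.80 ± 0.37, adjusted p = 0.301).

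Dcn in 5xFAD meninges was at 1257 FPKM in replicate 4 beside 428 and 400, and Bgn at 424 beside 222 and 279. The meninges as collected held other tissue. Choroid plexus markers summed to 15918 to 42180 FPKM in WT, and osteoblast markers to 349 to 1101 in WT, 416 to 815 in 5xFAD and 382 to 3619 in 5xFAD+L. The fibroblast list had a median log2 difference of 0.22 between light-treated mice and WT, and the 8 neuronal markers were all below 0 with a median of -1.78. The part of these differences in the meningeal values was not tested. Of the other lists, edgeR called 0 of 8 proteoglycans, 0 of 24 processing genes, 0 of 12 glycosaminoglycan enzymes and 0 of 9 fibrillar collagens under light, with 1, 4, 2 and 2 at an unadjusted p below 0.05 and none called by DESeq2 or limma.

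**Figure D4:**
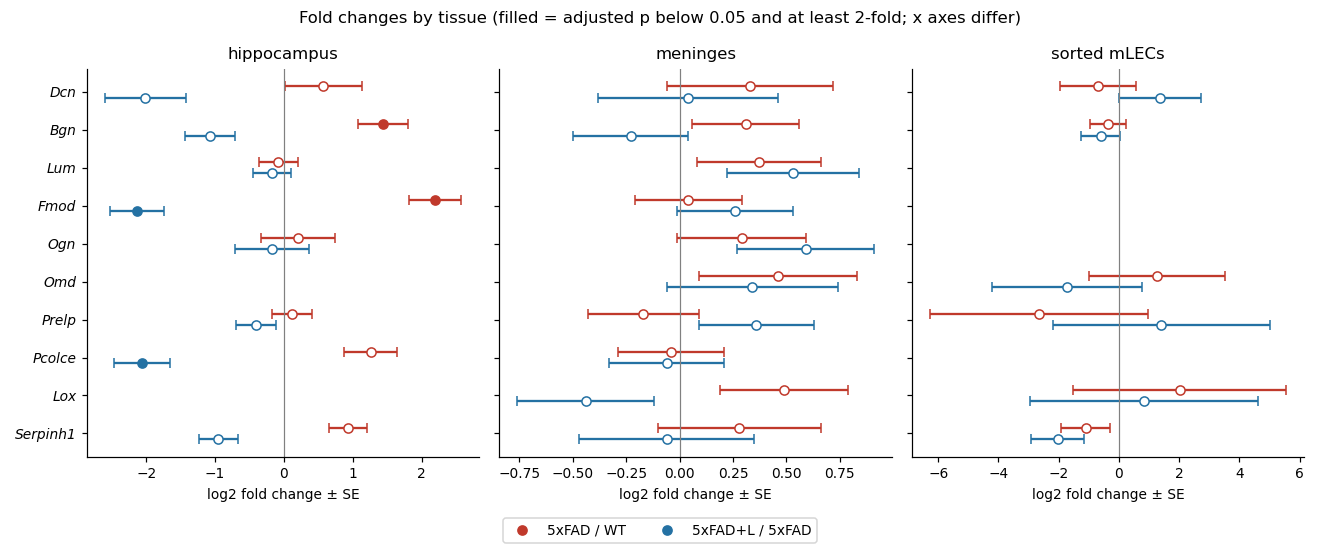
Log2 fold change with its SE for each member that could be tested, in 5xFAD against WT and in 5xFAD+L against 5xFAD, by tissue, with filled symbols for calls and an x axis that differs between panels. The filled points are Fmod in both hippocampal comparisons, Bgn in 5xFAD against WT and Pcolce under light, and the mLEC bars are the widest.

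The difference between tissues in each effect was tested directly in the 22-library fit. For light, the effect on Fmod was 2.37 ± 0.50 higher on the log2 scale in meninges than in hippocampus (adjusted p = 0.0367), the 1 call among 10 members where 1.05% of all genes were called. Pcolce differed by 1.97 ± 0.51 without passing (adjusted p = 0.0579). For genotype, 1.74% of all genes were called. The 5xFAD effect in meninges minus that in hippocampus was -2.17 ± 0.48 on the log2 scale for Fmod (adjusted p = 0.0208). Lox, which passed the filter in this fit through its meningeal level and had 2 to 7 hippocampal counts in WT, had a difference of -2.83 ± 0.53, given as a description. The light call of Fmod was lost without any 1 of 8 libraries (5xFAD hippocampus 3 or 4, 5xFAD+L hippocampus 1, 2 or 4, 5xFAD meninges 1 or 2, 5xFAD+L meninges 2), and its genotype call without WT hippocampus 4 or 5xFAD meninges 1.

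In sorted mLECs some members were present throughout, some were near absent and others varied between libraries. Bgn was above 50 FPKM in all 10 libraries, and Serpinh1 and Omd were above 1. Dcn was between 36.9 and 612 FPKM in 9 libraries and at 0.30 in 5xFAD+L replicate 3. Lum was listed at 0 in all 10, Ogn was above 0 in 5xFAD replicate 2 alone (1.51), and Pcolce did not exceed 2.36. Fmod was at 74.3 in WT replicate 2, a library almost without Ccl21a, and at 4.78 in 5xFAD replicate 4, with the other 8 at 0.04 or less. Prelp and Lox were on in some libraries and near 0 in others in every arm. Fibroblast markers were low in these cells (summed FPKM of 0 to 2.5 in WT, 12.8 to 49.5 in 5xFAD and 1.29 to 20.5 in 5xFAD+L), with Pdgfra and Slc6a13 at 0 in all 10. Mural cell markers summed to 0.24 to 493 FPKM in WT, 29.1 to 621 in 5xFAD and 13.5 to 62.9 in 5xFAD+L.

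At the spread of the mLEC libraries simulated 2-fold and 4-fold changes were not called. Of the 6 members tested there, edgeR called 0 in each of the 3 comparisons, beside 0% of 8188 genes under light, 0% in 5xFAD against WT and 0.0122% in light-treated mice against WT. At an unadjusted p below 0.05 there were 1, 0 and 1, each time Serpinh1 with the lower level under light, as for 3.19% of all genes against 5xFAD and 4.47% against WT. Serpinh1 was at 399, 67.5, 189 and 726 FPKM in WT, at 252, 199 and 75.0 in 5xFAD and at 7.73, 62.4 and 37.0 in 5xFAD+L. All 3 light-treated libraries were below all 7 others. The log2 difference was -2.04 ± 0.88 from untreated 5xFAD (95% interval -3.93 to -0.14, adjusted p = 1) and -3.15 ± 0.89 from WT (interval -5.07 to -1.22, adjusted p = 0.72, and 0.00195 to 1 over the alternatives). DESeq2, and edgeR without the filter, called the difference from WT.

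Serpinh1 and Omd had non-overlapping groups with the lower level under light against untreated 5xFAD, as did 6.58% of all genes, and Serpinh1 against WT, as did 2.03%. Omd, at 2.88, 2.34 and 3.82 FPKM under light against 16.9, 8.22 and 5.21 in 5xFAD, had an interval from -7.05 to 3.62 on the log2 scale, so the test could not place it. Bgn was at 345, 59.6, 154 and 240 in WT, 125, 290 and 97.8 in 5xFAD and 104, 117 and 102 under light (log2 -0.61 ± 0.65 under light, interval -2 to 0.79). Dcn, at 612, 320 and 0.30 under light, spread more within that arm than between arms. Without the 2 WT libraries low in Ccl21a edgeR called no member in any of the 3 comparisons. Under light edgeR called 0 of 16 tested collagen processing genes (1 at an unadjusted p below 0.05, and 1, P3h4, by DESeq2) and 0 of 2 fibrillar collagens.

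Across the 12 hippocampus libraries the tested members covaried loosely, with a median Pearson r of 0.34 over 28 pairs of log2(FPKM + 1) values, from -0.50 to 0.87. Pcolce (0.84), Fmod (0.78) and Serpinh1 (0.68) followed the mean of the other members most closely, and Bgn (0.17) and Ogn (0.15) least. The genes most like the mean of the members were Slc13a4 (r = 0.91), Aldh7a1 (0.89), Aldh1a2 (0.89) and Gys1 (0.89), followed by Perp, Slc6a13, Kdm1b, Colec12, Elof1 and Zmpste24, down to 0.86. Slc13a4, Slc6a13 and Aldh1a2 are on the leptomeningeal fibroblast list. Across the 10 meninges libraries the median r was 0.39 over 45 pairs, and the most alike genes were Abcg2 (0.98), Acer3 (0.98) and Rfk (0.96), followed by C1s1, Pcsk5, Mill2, A4galt, Plscr1, Epdr1 and Vnn1, down to 0.94. These r values are descriptions over libraries that share arms and depth.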

How the data were processed

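RNA-seq of 32 mouse libraries was analysed from 2 deposited tables, 1 of 22 hippocampus and meninges libraries and 1 of 10 mLEC libraries. The authors prepared libraries by Smart-seq2, trimmed reads with fastp and deposited RSEM expected counts and FPKM values per gene. The submitters' processing notes name mm10, Trimmomatic, HISAT2, StringTie and DESeq2. Smart-seq2 reads hold no molecular identifiers and no strand.

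Groups were taken from the sample labels. Expected counts were rounded and fitted with edgeR 4.0.16 (R 4.3.3, TMM, quasi-likelihood test, Benjamini-Hochberg over all genes tested), with the 3 arms of a tissue together and a filter of FPKM of at least 1 in at least 3 libraries. This left 12981 genes in hippocampus (8 members), 14318 in meninges (10) and 8188 in mLECs (6). A call required adjusted p below 0.05 and a 2-fold difference. A fit of the 22 tissue libraries gave the difference between WT tissues and the interaction contrasts, called on adjusted p alone. Alternatives were median-of-ratios scaling, other filters, the compared groups alone, the replicate block, DESeq2 1.42.0, limma 3.58.1 on log2(FPKM + 1) or log2(FPKM + 0.1), each library left out, and 2 sets of doubted libraries left out, the last chosen after seeing the data. The fit was tested on simulated counts, where it recovered most 4-fold and fewer 2-fold changes in hippocampus. In meninges it recovered most 4-fold but no 2-fold changes, and in mLECs neither size.

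The 10 genes and the lists were chosen with earlier results of these data known. All 10 members are named, and list genes by their calls, or else by smallest p. The genes most alike were the 10 with the highest r. Genes singled out among list members outside this rule (the marker genes, Thy1 and Pecam1) were chosen to check labels. Replicate numbers did not pair the samples (of same-numbered pairs, deviations correlated above 0.1 in 0 of 12 in hippocampus, 2 of 9 in meninges and 0 of 8 in mLECs). P-values measure the spread between single mice. Total counts were 6601143 to 24207326 per library. The mLEC libraries had the widest spread between replicates (biological coefficient of variation 1.89) at totals like those of hippocampus.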

Additional observations from a re-analysis of the deposited data

Results flagged for a closer look

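By chance alone about 1 in 20 groups would hold a library apart from the rest, a rate that does not apply where all the other values are at 0. Of 48 groups of 4 libraries examined for such a library, 6 had one. In 5xFAD hippocampus these were Dcn at 93.3 FPKM in replicate 4 and Bgn at 14.9 FPKM in replicate 1. In WT mLECs they were Fmod at 74.3 FPKM in replicate 2, Lox at 3.2 FPKM in replicate 1 and Pcolce at 0.1 FPKM in replicate 4, each the 1 value above 0 in its group, so these 3 were bound to stand apart whatever their size. In WT meninges it was Lox at 18.3 FPKM in replicate 1.

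Effects in meninges and hippocampus were compared by an interaction term. The effect of light on Fmod differed by 2.37 on the log2 scale (adjusted p = 0.0367), and the effect of the 5xFAD genotype by -2.17 for the same gene (adjusted p = 0.0208). The Lox difference for genotype was -2.83, a description, since Lox entered that fit through its meningeal level and had 2 to 66 hippocampal counts.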

How the results depend on the processing

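Each of the 8 members that passed the filter in hippocampus was called higher in WT meninges than in WT hippocampus under every alternative run. In the main fit 30.1% of all genes were called higher. Lox and Omd were called as well, a description, since they entered the main fit through their meningeal level. Comparisons between arms in the meninges gave 0 calls among members throughout. For light in hippocampus the 2 calls became 0 with a mean FPKM of at least 5 (a filter that drops Fmod), 0 with the compared groups alone and 0 to 2 with a library left out. For 5xFAD against WT in hippocampus the 2 calls became 0 with that filter (which drops Fmod and Bgn), 1 with the compared groups alone, 1 without the libraries rich in Ttr and 1 to 4 with a library left out. In the fit without a filter Lox was called beside Fmod and Bgn. For light-treated mice against WT, 0 became 1 (Dcn) with the compared groups alone in hippocampus and 1 (Serpinh1) without a filter and by DESeq2 in mLECs. For the interaction with tissue, light went from 1 to 2 by DESeq2 and to 0 to 1 with a library left out, and genotype (Fmod, and Lox as a description) from 2 to between 1 and 3 with a library left out. The causes were not tested.

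Within a tissue, replicate numbers did not pair samples of different arms. With the replicate block, the light calls in hippocampus went from 2 to 1 (Pcolce) and the genotype interaction from 2 to 1 (Lox). The light interaction kept 1 call, for Pcolce in place of Fmod. The block was set by number within each tissue, so it is nested in tissue and was not fitted to the contrast of WT tissues. A block by number across tissues was not tried.

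Over all genes, the 35 calls under light in hippocampus were 192 by DESeq2, 0 with the groups alone and 0 to 136 with a library left out. By DESeq2 the mLEC comparisons gave 357, 185 and 464 calls where edgeR gave 0, 0 and 1, and the meninges 72, 0 and 372 where edgeR gave 2, 0 and 2. The interactions gave 735 and 515 by DESeq2 where edgeR gave 159 and 263. Lox and Omd in hippocampus and 4 members in mLECs fell under the filter on low values.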
